A study of Mus musculus with 12 samples.

Results

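Glutathione transferases of the alpha, pi, theta and kappa classes and of the microsomal family were followed through the mouse duodenum as 10 genes. These were Gsta1, Gsta2, Gsta3, Gsta4, Gstp1, Gstt1, Gstk1, Mgst1, Mgst2 and Mgst3. The genes were listed by name, with earlier results of these data known, so a direction they share is not independent evidence. They were 10 of the 30676 genes listed in at least 1 of the deposited tables and of the 26121 listed in both, and every one of the 10 was counted in every library and passed the filter on low counts in every comparison.

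Glutathione transferases join the tripeptide glutathione to reactive, electron-poor molecules, which makes these more soluble and ready for export from the cell. The alpha, pi and theta classes are soluble enzymes of the cytosol, the kappa enzyme sits in mitochondria and peroxisomes, and the microsomal enzymes span the membranes of the endoplasmic reticulum and belong to a separate protein family that also makes leukotrienes and prostaglandins. In the small intestine these enzymes are concentrated in the absorptive epithelium, where they meet dietary electrophiles and the aldehydes of oxidised fat. In rodents many of them can be raised by drugs that activate the pregnane X receptor (PXR, gene Nr1i2) or by electrophiles that release the transcription factor NRF2 (gene Nfe2l2) from its inhibitor KEAP1.

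RNA was sequenced from 12 duodenal libraries of C57BL/6N mice, 3 in each of 4 groups. Mice were 6 weeks old when they were put on regular chow (Chow) or a high-fat diet (HFD) for 18 weeks. A group on the high-fat diet then received pregnenolone 16α-carbonitrile (PCN), a steroid ligand of rodent PXR, by intraperitoneal injection of 50 mg/kg once daily on 4 days (HFD PCN), and another the solvent of 30% DMSO in corn oil (HFD Vehicle). All 3 HFD groups thus carry the diet, the HFD group had no treatment, and the labels read here leave the sex of the mice, the make-up of the diets and any pooling of animals unstated. The labels give each library its own number and say nothing more on separate animals, so the p-values may reflect no more than the variation among these libraries.

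The libraries held 4676718 to 20684369 counts (median 15404357). The tissue label is duodenum while the extraction protocol speaks of liver pieces, and the counts were those of intestine: Vil1, the brush border villin, stood at 1172 to 2390 CPM (counts of a gene scaled to the same library total, here after TMM scaling over all 12 libraries) and the hepatocyte gene Alb at 0.107 to 1.16 CPM. A pair of HFD Vehicle libraries stood apart. The chaperone gene Hsp90aa1 was at 1832 CPM in the library HFD Vehicle 23 and 1487 CPM in HFD Vehicle 50, against 62.4 to 424 CPM in the other 10 libraries. Mitochondrial ribosomal RNA took 33.6% of the counts in HFD Vehicle 23 against 8.69% to 19.2% elsewhere. For the 10 genes, fold changes that use these libraries are also given without them, while lists and other genes were not refitted without them.

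On the deposited GRCm38 coordinates 3 of the 4 alpha class genes lie together on chromosome 9: Gsta4 (ENSMUSG00000032348) from 78182774 to 78209349, Gsta1 (ENSMUSG00000074183) from 78230656 to 78242684 and Gsta2 (ENSMUSG00000057933) from 78331018 to 78355788, the last on the minus strand. The gaps are 21306 bases between Gsta4 and Gsta1 and 88333 bases between Gsta1 and Gsta2, and the stretch from the first to the last holds 173015 bases. Between Gsta1 and Gsta2 lie the protein-coding genes Gm3776 (78257129 to 78269166) and Gm10639 (78289923 to 78305525). The coding sequences of Gsta1 and Gsta2 were identical at 97.5% of aligned positions and those of Gsta1 and Gm3776 at 99.7%, while Gsta1 and Gsta4 shared 66.5%. Gsta3 (ENSMUSG00000025934) lies elsewhere, on chromosome 1 from 21240589 to 21265661, and its coding sequence was identical to that of Gsta1 at 74.0% of positions.

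The 250 bases before the RefSeq start sites of Gsta1 and Gsta2 are shown because this near-identical pair stood higher in every HFD PCN library than in any other library (values further on), and because the likeness of the genes runs on into their upstream sequence. Both are 5′ to 3′ on the strand of the gene, from the GRCm38.p6 annotation of RefSeq, at chr9:78230419-78230668 (plus strand) for Gsta1 and chr9:78347146-78347395 (minus strand) for Gsta2. The Gsta2 window lies inside the deposited span of its gene, which has a further start upstream. Capitals mark the longest stretch that is identical in both.
Gsta1: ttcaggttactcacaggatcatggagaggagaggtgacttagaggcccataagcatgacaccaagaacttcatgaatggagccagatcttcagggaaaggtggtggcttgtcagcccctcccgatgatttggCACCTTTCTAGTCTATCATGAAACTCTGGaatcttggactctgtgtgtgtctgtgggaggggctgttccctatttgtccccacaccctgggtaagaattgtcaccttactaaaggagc
Gsta2: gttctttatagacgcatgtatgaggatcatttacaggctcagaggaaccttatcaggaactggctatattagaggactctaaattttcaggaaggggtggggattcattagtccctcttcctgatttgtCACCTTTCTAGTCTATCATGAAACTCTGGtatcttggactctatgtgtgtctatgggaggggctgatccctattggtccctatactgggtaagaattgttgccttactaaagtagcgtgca
The shared stretch is 29 bases long and lies 118 to 90 bases before the start of Gsta1 and 121 to 93 bases before that of Gsta2. Over a global alignment the windows were identical at 184 of 261 columns (70.5%).

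RefSeq windows were found for 9 of the 10 genes (10 windows of 250 bases, Gsta4 without one). Each was searched on both strands for short motifs, beside the 32851 windows of all genes. The antioxidant response element core TGACNNNGC, the sequence class bound by NRF2, was in the windows of Gsta3 and Mgst1 and in 10.2% of all windows. The nuclear receptor half-site AGGTCA was in that of Gstk1 and in 14% of all, and the half-site AGTTCA in none of the 10 and in 11.8% of all. The repeats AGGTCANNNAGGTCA and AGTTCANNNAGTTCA, in which the half-sites recur, were in none of the 10 windows and in 0.00609% and 0% of all. TTTATG, a core bound by the intestinal factor CDX2, was in the window of Mgst1 and in 10.8% of all. A match describes letters in these windows only.

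The near-identity of the genes bears on how their reads could be assigned. Of the 50-base stretches of the annotated transcripts of Gsta1, 90.5% also occur in another gene, most of them in Gm3776 (75.7%), Gsta2 (46.6%) or Gm10639 (31.3%). For Gsta2 the share was 49.8%, and for Gstp1 33.7%, all of it shared with its copy Gstp2 and part with the processed pseudogene Gstp-ps. In Gsta4, Gstt1, Gstk1, Mgst1 and Mgst3 no 50-base stretch recurred in another gene, and in Gsta3 and Mgst2 the share was 0.273% and 0.237%. Separate values of Gsta1, Gsta2 and Gstp1 are therefore uncertain, and sums over the copies are given beside them. Gsta3 overlaps the gene Gm28836 on the opposite strand and Mgst2 the gene Gm37261 on its own strand. The sources used here do not say whether the counting used strand. Whether reads from the overlap of Gsta3 were told apart is thus unknown, and in Mgst2 strand could not separate them. The size of these overlaps was not measured.

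**Figure D1:**
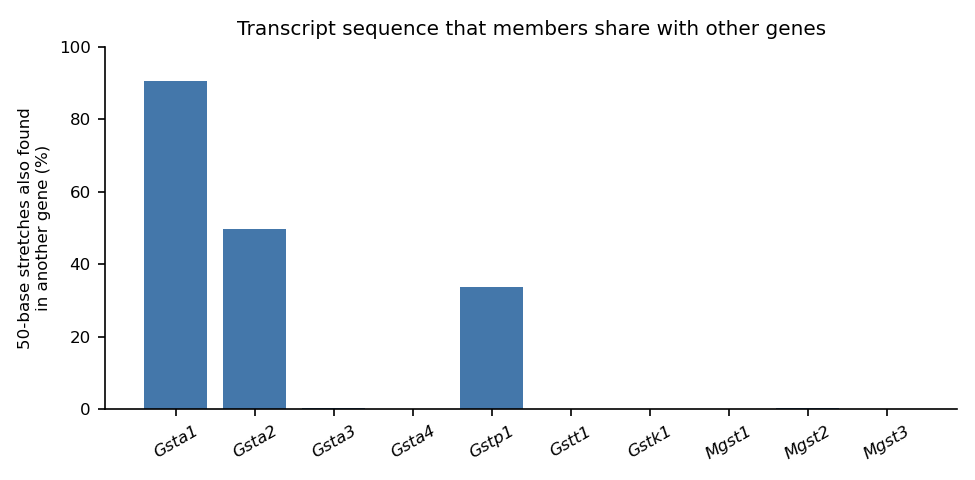
Share of the 50-base stretches in the annotated transcripts of each gene that also occur in a transcript of another gene, in percent, with 1 bar per gene. Gsta1 (90.5%), Gsta2 (49.8%) and Gstp1 (33.7%) share sequence with their copies, while the bars of the other 7 genes are at or near 0.

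Over the 12 libraries Gsta4 was the most abundant of the 10 per exon length, at a mean of 214 CPM per kilobase of exon. It was followed by Mgst3 at 149, Mgst1 at 57.4, Gsta2 at 56.2 and Gsta1 at 54.5 CPM per kilobase. Gstp1 (29.3), Gstt1 (28.4), Gstk1 (22.7) and Mgst2 (22.4) came after these on the same scale. Gsta3 was lowest at 0.888 CPM per kilobase, with 12 to 160 counts in a library. The first place of Gsta4 rested on the HFD PCN group, with a mean of 516 CPM per kilobase against 165 for Mgst3. In the other groups Mgst3 was above Gsta4, at 148 against 99.4 in Chow, 159 against 137 in HFD and 125 against 104 in HFD Vehicle.

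**Figure D2:**
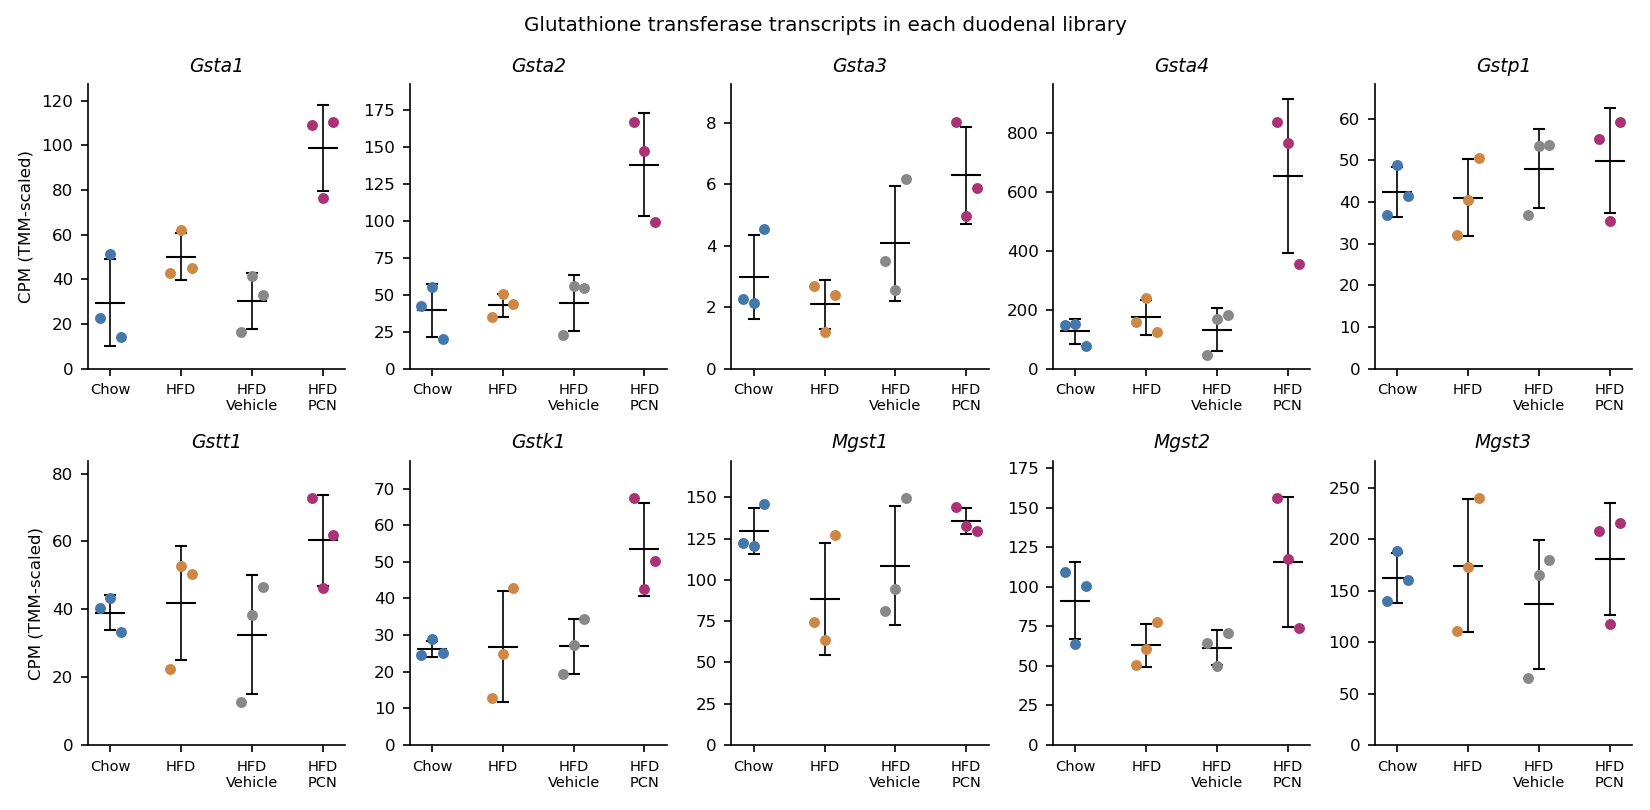
Level of each of the 10 genes in CPM after TMM scaling (y axes start at 0 and differ between panels), with 1 point per library, the group mean as a horizontal line and the standard deviation as a bar (n = 3 per group). In Gsta1, Gsta2 and Gsta4 the 3 HFD PCN libraries lie above all 9 others, whereas in Gstp1 and Mgst3 the 4 groups overlap.

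The first comparison asks how the high-fat diet alone relates to these transcripts, with HFD against Chow. None of the 10 genes passed edgeR's quasi-likelihood test at an adjusted p under 0.05, and 10 of the 15278 genes tested did (0.0655%). DESeq2, which called 0.833% of its genes, and limma-voom, which called 7 genes, called none of the 10. Fold changes were positive for 6 of the 10 and for 50.5% of all genes, and the median log2 fold change was 0.07, against 0.0046 for all genes tested. The genes nearest to a difference were Mgst1 and Mgst2, both lower on the diet.

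Mgst1 (ENSMUSG00000008540, chromosome 6, 138140316 to 138156755), which conjugates glutathione and reduces lipid peroxides in the endoplasmic reticulum, stood at 123, 120.5 and 146 CPM in the Chow libraries and at 74.5, 63.8 and 127 CPM in the HFD libraries. HFD 38 lay within the Chow range and the other HFD libraries below it. The log2 fold change was -0.56 ± 0.24 (SE), with an unadjusted p of 0.0377 and an edgeR adjusted p of 0.463. Without HFD 38 the value was -0.90 (edgeR adjusted p 0.0801) and without HFD 30 it was -0.35. Mgst2 (ENSMUSG00000074604, chromosome 3, 51660360 to 51682677), a glutathione transferase that can also form leukotriene C4, stood at 109, 63.8 and 100.4 CPM in Chow and 50.5, 60.9 and 77.8 CPM in HFD, with overlap through Chow 17. Its log2 fold change was -0.54 ± 0.22 (SE, unadjusted p 0.0313, edgeR adjusted p 0.450). Unadjusted p-values under 0.05 were found for these 2 of the 10 genes and for 10.3% of all genes.

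Mgst3 (ENSMUSG00000026688, chromosome 1, 167371966 to 167393841), the third microsomal enzyme and a peroxidase of lipid hydroperoxides, differed by 0.09 ± 0.24 (SE) on the log2 scale, with a 95% interval of -0.44 to 0.62. In CPM it stood at 139, 188 and 160.2 in Chow and at 110.4, 172 and 239.8 in HFD. The HFD values thus surrounded those of Chow.

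In the alpha class, Gsta1 had the largest positive value. Gsta1, whose product is a cytosolic enzyme with peroxidase and steroid isomerase activity, stood at 22.6, 51.4 and 14.3 CPM in Chow and 42.6, 62.1 and 45.3 CPM in HFD. The groups overlapped through Chow 17, and the log2 fold change was 0.78 ± 0.46 (SE, 95% interval -0.31 to 1.88, edgeR adjusted p 0.573). It was 1.45 without Chow 17 (edgeR adjusted p 0.104) and 0.43 without Chow 19. Gsta2, its near-copy, had 0.14 ± 0.33, and with counts of Gsta1 and Gsta2 summed the value was 0.44 ± 0.37 (SE). Gsta4 had 0.46 ± 0.31 on the log2 scale, but 0.20 without Chow 19 and 0.18 without HFD 30. Gsta3 had -0.64 ± 0.43, but -0.15 without Chow 19 and -0.29 without HFD 30.

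For the remaining genes the diet difference lay near 0. Gstp1 (ENSMUSG00000060803, chromosome 19, 4035407 to 4037921), the pi class enzyme, had a log2 fold change of -0.04 with a 95% interval of -0.44 to 0.35. Gstt1 (ENSMUSG00000001663, chromosome 10, 75783813 to 75798584), the theta class enzyme that acts on halogenated small molecules, had 0.11 (-0.48 to 0.70). Gstk1 (ENSMUSG00000029864, chromosome 6, 42245935 to 42250447), the kappa enzyme, had 0.05 (-0.72 to 0.82). In none of the 10 genes were all HFD libraries on one side of all Chow libraries, which was so for 16.3% of all genes tested. Without HFD 38 the value of Gstk1 was -0.44, so the sign of its difference depended on that library.

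Beside the 10 genes, the mu class genes, a neighbouring class of soluble enzymes, held 1 gene that passed. Gstm1 fell by 1.07 on the log2 scale (edgeR adjusted p 0.0399) and the list's median over 7 genes was -0.43. The T and NK cell markers, as a check on cell makeup, were all lower on the diet (8 of 8 negative, none called), with a summed level of 99.6 to 184 CPM in Chow and 24.5 to 77.9 CPM in HFD, and the pancreatic acinar markers likewise (9 of 9 tested negative, none called). The enterocyte markers summed to 38795 to 48871 CPM in Chow and 26296 to 54489 CPM in HFD. The part of these in the values of the 10 genes was not tested. In bulk tissue, fewer cells of a type and less RNA per cell cannot be told apart.

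The second comparison asks how PCN relates to these transcripts on the high-fat diet, with HFD PCN against HFD Vehicle. All 10 genes had positive fold changes, against 49% of the 16110 genes tested, with a median log2 fold change of 0.90 against -0.01 for all genes. No gene of the 10 passed edgeR's test at an adjusted p under 0.05, and 8 genes in all passed as higher (0.0497%). Unadjusted p-values under 0.05 were found for 5 of the 10 (Gsta1, Gsta2, Gsta4, Gstk1 and Mgst2) and, as higher, for 6.46% of all genes. In these 5 genes all HFD PCN libraries lay above all HFD Vehicle libraries, as they did in 9.84% of all genes. DESeq2 called Gsta1, Gsta2 and Gsta4, with 0.608% of its genes called as higher, while limma-voom, with 7 genes called in all, called none of the 10.

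Gsta4, the alpha class enzyme that detoxifies 4-hydroxynonenal and related aldehydes of lipid peroxidation, had the largest value. It stood at 46.7, 167 and 181 CPM in the HFD Vehicle group and at 838, 765 and 355 CPM in HFD PCN. The lowest HFD PCN library was above the highest library of each other group, the Chow and HFD libraries ranging from 77.0 to 239 CPM. The log2 fold change was 2.31 ± 0.52 (SE), or 4.94-fold, with a 95% interval of 1.13 to 3.48 and an edgeR adjusted p of 0.231. DESeq2 gave 2.32 with an adjusted p of 0.000136.

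Gsta1 stood at 16.6, 41.3 and 32.8 CPM in the HFD Vehicle group and at 109, 76.4 and 111 CPM in HFD PCN. Again no HFD PCN library was as low as any library of the other groups, whose highest was HFD 30 at 62.1 CPM. The log2 fold change was 1.70 ± 0.33 (SE, 95% interval 0.97 to 2.42, edgeR adjusted p 0.200), or 3.24-fold. Gsta2 stood at 22.7, 56.0 and 54.2 CPM in the HFD Vehicle group and 167, 148 and 99.2 CPM in HFD PCN. Its HFD PCN libraries were above all 9 others, of which the highest was HFD Vehicle 50, and its log2 fold change was 1.63 ± 0.36 (SE, edgeR adjusted p 0.229).

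Sums over the near-identical genes had similar values. Gsta1 and Gsta2 summed came to 1.66 ± 0.33 (SE, log2 scale, edgeR adjusted p 0.201), and the sum that adds Gm3776 and Gm10639 gave 1.66 ± 0.34. Gm3776 itself stood at 2.57, 10.03 and 9.54 CPM in the HFD Vehicle group and 28.9, 19.9 and 20.9 CPM in HFD PCN. Gm10639 stayed at or under 1.19 CPM in every library. In the authors' deposited table the log2 fold changes were 1.49 for Gsta1 (adjusted p 0.000922), 1.41 for Gsta2 (adjusted p 0.00447) and 1.82 for Gsta4 (adjusted p 0.000948), and no other of the 10 genes was under 0.05 there.

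Gsta3, the alpha class gene outside the chromosome 9 group, was the least expressed. It stood at 3.50, 2.56 and 6.16 CPM in the HFD Vehicle group (31 to 49 counts) and 8.04, 4.96 and 5.89 CPM in HFD PCN (60 to 160 counts). HFD Vehicle 55 lay among the HFD PCN libraries. Its log2 fold change was 0.68 ± 0.38 (SE, 95% interval -0.17 to 1.53).

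Among the other soluble enzymes, Gstk1 stood at 19.3, 27.3 and 34.4 CPM in the HFD Vehicle group and 67.4, 42.6 and 50.4 CPM in HFD PCN. The HFD PCN libraries were above all HFD Vehicle libraries, although HFD 38, an untreated library, reached 42.9 CPM. This gave 0.98 ± 0.27 (SE) on the log2 scale, at an edgeR adjusted p of 0.231. Gstt1 stood at 12.8, 38.2 and 46.5 CPM against 72.8, 46.2 and 62.0 CPM, and the groups met at HFD Vehicle 55 and HFD PCN 11. Its log2 fold change was 0.89 ± 0.41 (SE, 95% interval -0.03 to 1.82), and 0.50 without HFD Vehicle 23.

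Gstp1 showed the least difference of the 10. It stood at 37.0, 53.4 and 53.6 CPM in the HFD Vehicle group and 55.0, 35.5 and 59.3 CPM in HFD PCN, so that the lowest HFD PCN library was below all HFD Vehicle libraries. On the log2 scale the difference was 0.04 with a 95% interval of -0.51 to 0.60, and 0.10 with Gstp1, Gstp2 and Gstp3 summed. The pseudogene Gstp-ps, on chromosome 1, was listed at group means of 44.8 to 52.8 CPM, as high as Gstp1 itself at 41.0 to 49.9 CPM, and adding it gave 0.05 for the sum.

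Values of the microsomal genes were smaller than those of Gsta1, Gsta2 and Gsta4, a contrast that was not tested. Mgst2 stood at 64.2, 49.7 and 70.9 CPM in the HFD Vehicle group and 156, 118 and 73.9 CPM in HFD PCN. The HFD PCN libraries were all above the HFD Vehicle libraries, with HFD PCN 27 only just so and within the Chow range. This gave 0.91 ± 0.29 (SE) on the log2 scale, at an edgeR adjusted p of 0.235. Mgst1 (81.4, 94.8 and 149.6 against 144, 133 and 129.6 CPM) had 0.31 with a 95% interval of -0.25 to 0.88. Mgst3 (65.0, 166 and 179 against 208, 118 and 215 CPM) had 0.39 with an interval of -0.46 to 1.24. In both, the groups overlapped, and these intervals span 0.

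How many of the 10 passed moved with the HFD Vehicle libraries and with the filter on low counts. Without HFD Vehicle 55, the library of lowest depth, 6 of the 10 passed edgeR's test (Gsta1, Gsta2, Gsta3, Gsta4, Gstk1 and Mgst2). In that fit 3697 of all 16789 genes tested passed, 1581 of them as higher. Its only reference libraries were HFD Vehicle 23 and 50, the pair that stood apart. None of the 10 passed without any other single library. With no filter on low counts 4 of the 10 passed (Gsta1, Gsta2, Gstk1 and Mgst2), and Gsta4 did not (edgeR adjusted p 0.127). In all 843 of 28731 genes passed there, 232 as higher and 611 as lower. Without HFD Vehicle 23 and 50 together, which leaves HFD Vehicle 55 alone and assumes that it varies like the HFD PCN group, 7 of the 10 were positive and none passed. Under this alternative the log2 fold changes were 1.82 for Gsta4, 1.56 for Gsta1 and 1.32 for Gsta2, 0.61 for Gstk1 and 0.68 for Mgst2, but 0.34 for Gstt1 and 0.0070 for Gsta3. Those of Gstp1, Mgst1 and Mgst3 were -0.14, -0.17 and -0.026. Of single libraries, leaving out HFD Vehicle 50 gave 0.41 for Gsta3, and leaving out HFD Vehicle 23 gave 0.13 for Mgst1 and 0.046 for Mgst3.

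**Figure D3:**
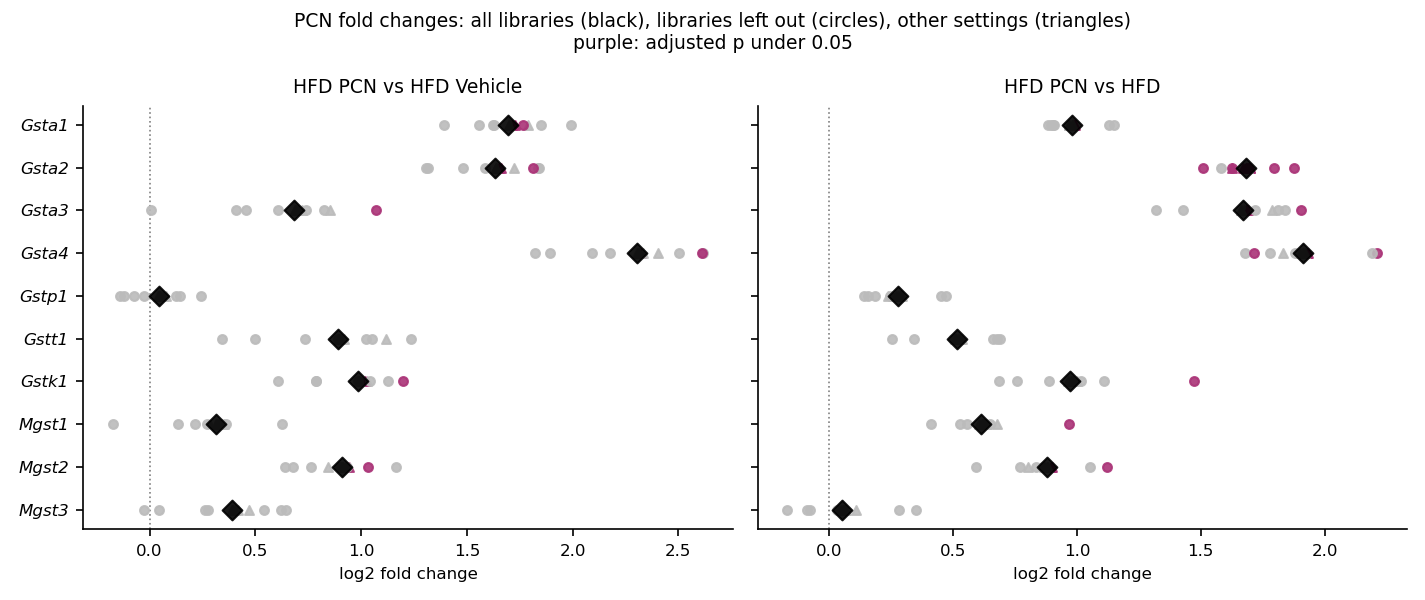
Log2 fold change of each of the 10 genes for HFD PCN against HFD Vehicle (left) and against HFD (right). Black diamonds use all libraries of the comparison, circles leave libraries out, triangles use other tools or settings, and purple marks an adjusted p under 0.05. Gsta1, Gsta2 and Gsta4 stayed above 0 in all of these settings, with a lowest value of 0.88 for Gsta1 against HFD. So did Gsta3, Gstt1, Gstk1 and Mgst2, with a lowest value of 0.0070 for Gsta3 against HFD Vehicle. Gstp1 and Mgst1 on the left and Mgst3 on both sides crossed 0.

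Cell type markers also differed between these groups. All 12 enterocyte markers were higher in HFD PCN (none called, median log2 fold change 0.54), with a summed level of 16580 to 50686 CPM in the HFD Vehicle group and 48579 to 53646 CPM in HFD PCN. HFD Vehicle 23, the lowest on that sum, was also the lowest of all 12 libraries in Gsta4, Gstt1 and Mgst3. The fibroblast markers (6 of 6) and the Paneth cell markers (9 of 9) were lower, with none called, and the 8 T and NK markers higher, with none called. Also lower, with none called, were the pancreatic acinar (9 of 9 tested, median log2 fold change -2.34), smooth muscle (5 of 5) and heat shock lists (6 of 6 tested). Hepatocyte markers summed to 2.30 to 5.17 CPM in the HFD Vehicle group and 2.37 to 4.27 CPM in HFD PCN. The part of all these markers in the values of the 10 genes was not tested. Without HFD Vehicle 23 the log2 fold changes were 1.39 for Gsta1, 1.31 for Gsta2 and 1.89 for Gsta4.

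A comparison with the untreated diet group, HFD PCN against HFD, avoids the HFD Vehicle libraries. Here PCN and its injection cannot be told apart, and the comparison shares the HFD PCN libraries with the one above. Gsta2 rose 3.21-fold (log2 fold change 1.68 ± 0.21, SE, edgeR adjusted p 0.00672), from 34.8, 50.4 and 43.7 CPM in HFD. It was the only one of the 10 to pass, where 0.244% of the 15982 genes tested passed as higher. All 10 fold changes were positive, against 50.1% of all genes, with a median log2 value of 0.92.

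Several other genes came close to the threshold. Gsta4, from 159, 239 and 123 CPM in HFD, stood 1.91 ± 0.35 (SE) higher on the log2 scale, at an edgeR adjusted p of 0.0542. Gsta1 had 0.98 ± 0.20 (SE, edgeR adjusted p 0.0584). Gsta3, at 2.69, 1.17 and 2.40 CPM in HFD, had 1.67 ± 0.36 (SE, edgeR adjusted p 0.0743), and all its HFD PCN libraries were above all its HFD libraries. With CPM scaled within this comparison, the HFD and HFD PCN groups also did not overlap in Gsta1, Gsta2, Gsta4, Gstk1 and Mgst1. This makes 6 of the 10 with Gsta3, against 11.4% of all genes as higher. The count depends on the scaling. With CPM scaled over all 12 libraries Gstk1 overlapped, at 42.9 in HFD 38 and 42.6 in HFD PCN 11. Mgst1 was only just apart, at 127 in HFD 38 and 129.6 in HFD PCN 27.

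Unadjusted p-values under 0.05 were found for 7 of the 10, and as higher for 8.38% of all genes. To the alpha class these added Mgst2 (0.88 ± 0.26), Gstk1 (0.97 ± 0.38) and Mgst1 (0.61 ± 0.23, log2 scale with SE). The values of Gstt1 (0.52, 95% interval -0.11 to 1.14), Gstp1 (0.28, -0.19 to 0.74) and Mgst3 (0.05, -0.59 to 0.69) had intervals that span 0. DESeq2 called Gsta1, Gsta2, Gsta3, Gsta4 and Mgst2, with 1.47% of its genes called as higher. Gsta2 was not called without HFD 4 (edgeR adjusted p 0.0668) nor in a fit of all 12 libraries (0.135), whereas the summed counts of Gsta1 and Gsta2 passed in this comparison (1.35 ± 0.19, SE, edgeR adjusted p 0.0135). Other settings called more of the 10: Gsta2, Gsta3, Gsta4, Gstk1 and Mgst1 passed without HFD 38, Gsta2, Gsta4 and Mgst2 without HFD PCN 27, and Gsta1, Gsta2, Gsta3, Gsta4 and Mgst2 with no filter on low counts. Calls over all genes rose as well, from 52 in the main fit to 452 without HFD 38 and 746 with no filter. Without HFD 38 the log2 fold changes were 1.47 for Gstk1 and 0.97 for Mgst1.

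Cell type markers differed here too. Of the 6 fibroblast markers 5 were lower in HFD PCN than in HFD, and the collagen genes Col1a1 (-1.84, edgeR adjusted p 0.0488) and Col3a1 (-1.12, edgeR adjusted p 0.0345) passed. The fibroblast markers summed to 293 to 360.3 CPM in HFD and 141 to 186 CPM in HFD PCN, without overlap. All 6 myeloid markers were lower, and all 8 T and NK markers and all 7 stem and cycling markers higher, with none of these called. Enterocyte markers were higher for 10 of 12, none called, with a median log2 fold change of 0.33. The part of these markers in the values of Gsta2 and the other genes was not tested.

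The solvent injection itself was compared as HFD Vehicle against HFD. None of the 10 genes passed edgeR's test, nor did any of the 16255 genes tested (0%), although 953 genes (5.86%) had an unadjusted p under 0.05. DESeq2 called 32 genes (0.18%), none of them among the 10, and limma-voom called 0. Fold changes were positive for 4 of the 10 and 50.7% of all genes, with a median log2 value of -0.015 for the 10. The largest difference was in Gsta3 (0.97, 95% interval -0.11 to 2.05) and the next in Gsta1 (-0.73, -1.47 to 0.01). For Gsta3 the value was 0.56 without HFD Vehicle 55, 0.64 without HFD 30 and 1.64 without HFD Vehicle 23 and 50. In Gsta1 all HFD Vehicle libraries (16.6 to 41.3 CPM) were below all HFD libraries (42.6 to 62.1 CPM), which was so for 5.27% of all genes. Without HFD Vehicle 23 the value of Gsta1 was -0.42, and without HFD Vehicle 23 and 50 it was -0.59. Leaving out that pair gave 0.78 for Mgst1, 0.41 for Gstp1 and 0.36 for Gsta2. The HFD PCN libraries, shared by both comparisons, gave Gsta1 at 3.24-fold of HFD Vehicle and 1.97-fold of HFD. Marker lists differed between HFD Vehicle and HFD too, with none called. Higher were the Paneth (8 of 8 tested, median log2 fold change 2.05), pancreatic acinar (9 of 9 tested, 1.72), enteroendocrine (8 of 8) and heat shock lists (4 of 4 tested). Lower were 11 of 12 enterocyte markers and all 8 T and NK markers. The part of these markers in the values of the 10 genes was not tested.

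**Figure D4:**
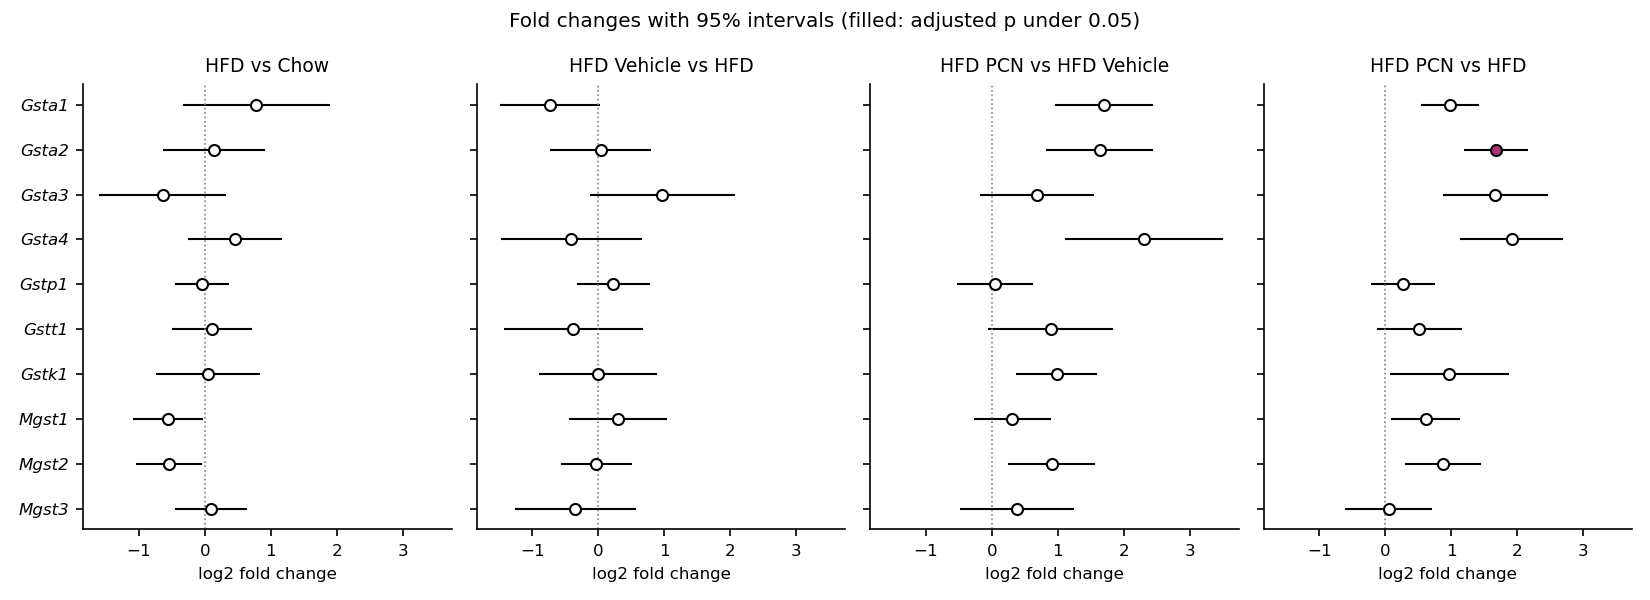
Log2 fold change of the 10 genes in the 4 comparisons, with 95% intervals from the edgeR fit as bars and a filled symbol for an adjusted p under 0.05. The 10 points lie on both sides of 0 for HFD against Chow and HFD Vehicle against HFD, and all lie above 0 for the comparisons with HFD PCN, where Gsta2 against HFD (1.68) is the filled one.

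Within the alpha class Gsta1, Gsta2 and Gsta4 had their highest mean in HFD PCN and their lowest in Chow, while HFD Vehicle and HFD changed places between Gsta2 and the other pair. For Gsta1 the means were 29.4 ± 19.5 (SD, n = 3) CPM in Chow, 30.2 ± 12.6 in HFD Vehicle, 50.0 ± 10.6 in HFD and 98.7 ± 19.3 in HFD PCN. Chow and HFD Vehicle overlapped and the later neighbours did not. For Gsta2 they were 39.3 ± 17.8 in Chow, 43.0 ± 7.82 in HFD, 44.3 ± 18.8 in HFD Vehicle and 138.0 ± 35.0 in HFD PCN. The 3 lower groups overlapped, and the same holds for Gsta4, at 126 ± 42.3 in Chow, 132 ± 73.8 in HFD Vehicle, 174 ± 59.3 in HFD and 653 ± 261 CPM in HFD PCN.

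For the other genes HFD PCN also had the highest mean, yet neighbouring groups overlapped in all but Gstk1. Gstk1 stood at 26.2 ± 2.28 (SD, n = 3) CPM in Chow, 26.8 ± 15.1 in HFD, 27.0 ± 7.52 in HFD Vehicle and 53.5 ± 12.7 in HFD PCN, and the last neighbours did not overlap. Gstp1 ranged least between libraries, 1.85-fold from the lowest to the highest, and Gsta4 most, 17.9-fold.

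Summed over Gsta1 to Gsta4 the level was 198 ± 74.3 (SD, n = 3) CPM in Chow, 269 ± 73.7 in HFD, 210.2 ± 105 in HFD Vehicle and 896 ± 289 in HFD PCN. Mgst1 to Mgst3 summed to 383 ± 20.0 CPM in Chow, 326 ± 108 in HFD, 307 ± 94.7 in HFD Vehicle and 432 ± 71.2 in HFD PCN. The alpha genes thus made up 28.2%, 38.9%, 32.2% and 59.2% of the 10-gene sum in Chow, HFD, HFD Vehicle and HFD PCN. Every HFD PCN library (49.1% to 66.9%) was above every other library (18.7% to 45.9%) in this share, and Gsta4 alone took 30.6% to 51.5% of the sum there. These sums are given as descriptions, without a test.

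The balance of the near-identical pair was looked at after its values had been seen. The ratio of Gsta1 to Gsta2 counts was 0.535 to 0.928 in Chow, 1.04 to 1.23 in HFD, 0.604 to 0.736 in HFD Vehicle and 0.518 to 1.12 in HFD PCN. The 3 HFD libraries were all above the Chow and HFD Vehicle libraries, and HFD PCN 27 lay among them while the other HFD PCN libraries did not. How reads that fit both copies were assigned is not stated, and they could affect the ratio.

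**Figure D5:**
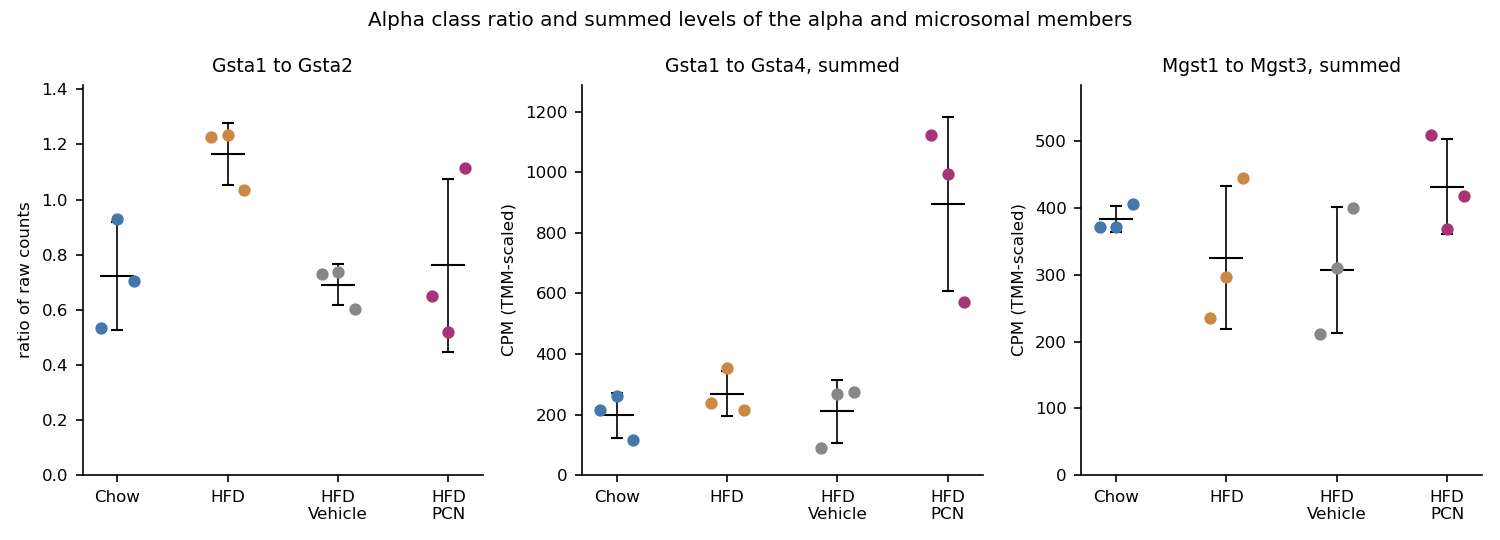
Left, ratio of raw counts of Gsta1 to Gsta2. Middle and right, summed levels of Gsta1 to Gsta4 and of Mgst1 to Mgst3 in CPM after TMM scaling. Points are libraries, lines are means and bars are standard deviations (n = 3 per group). The ratio was highest in HFD (1.04 to 1.23), apart from HFD PCN 27 at 1.12, and the alpha class sum was highest in HFD PCN (570.4 to 1122 CPM), while the microsomal sums overlapped.

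Across the 12 libraries Gsta2 and Gsta4 varied most alike of the 10 genes (Pearson r 0.960 of log2 CPM over 12 libraries), followed by Gsta1 and Gsta2 (0.888), Gstt1 and Mgst3 (0.881) and Gsta1 and Gsta4 (0.866). Gsta1 and Mgst1 (0.0815) and Gstp1 and Mgst2 (0.0491) had nearly no relation. All libraries enter each value, so that the 4 groups, depth and scaling are shared by the points. For Gsta1 with Gsta2, how reads that fit both were assigned is not stated. Likeness was ranked among 10337 protein-coding genes with a mean of at least 50 counts. Predicted genes were left out, and with them Gm3776, the near-copy of Gsta1. In this set those most like Gsta4 were Hopx (0.984) and Gpr155 (0.966), and those most like Gsta1 were Egln3 (0.909) and Gsta2. For Gstt1 they were Gsto1 (0.984) and Atp6v1a (0.973), for Mgst3 Gpx4 (0.961) and Hadhb (0.949), for Gstk1 Tes (0.959) and Elavl1 (0.952), and for Mgst1 the ribosomal protein genes Rps28 (0.973) and Rpl30 (0.967). For Mgst2 they were Dnajc8 (0.960) and Ppp1r7 (0.956), for Gstp1 Hnrnpf (0.921) and Selenbp1 (0.893), for Gsta3 Fastkd2 (0.928) and Top2a (0.924), and for Gsta2, after Gsta4, Hopx (0.953).

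The rest of the glutathione pathway was described through lists of its genes. In the mu class, 6 of 7 genes were higher in HFD PCN than in HFD Vehicle, with a median log2 fold change of 1.55, and Gstm1 passed (3.25, edgeR adjusted p 0.0494). Against HFD, 3 of the 7 passed (Gstm1 3.29, Gstm3 2.51 and Gstm6 1.27, edgeR adjusted p 0.00276, 0.00214 and 0.0483). These genes also share sequence with one another. Of the other soluble transferases, 6 of 7 tested were higher against HFD Vehicle with a median of 0.50 and none passed. Among the other microsomal family members (Ptges, Alox5ap and Ltc4s), none of 3 passed, with a median of 0.07.

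The enzymes that make and recycle glutathione did not pass in any of these comparisons. Of 13 such genes tested for HFD PCN against HFD Vehicle, 8 were higher, with a median of 0.06. Gclc, the catalytic subunit of the enzyme that limits glutathione synthesis, was at -0.13 ± 0.36 (SE, log2 scale) and Gclm, its modifier subunit, at 0.99 ± 0.39. On the diet Gclc had 1.37 ± 0.35 (SE, edgeR adjusted p 0.306), from 57.0 to 62.3 CPM in Chow to 74.7 to 242 CPM in HFD. None of the 12 genes of conjugate export and mercapturate formation that were tested passed after PCN, with 6 higher. Abcc2, the pump that exports glutathione conjugates across the apical membrane, had 0.82 ± 0.32 (SE, edgeR adjusted p 0.252). None of 6 glutathione peroxidase genes passed.

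Targets of PXR and NRF2 were set beside the 10 genes. Of 15 PXR target genes outside the transferases, all were higher in HFD PCN than in HFD Vehicle, 5 passed and the median log2 fold change was 1.55. The list was drawn up with earlier results of these data known, so its direction is not independent evidence. Cyp3a11, the main drug-metabolising P450 under PXR, had 3.83 ± 0.71 (SE, edgeR adjusted p 0.200) against HFD Vehicle and rose against HFD (3.95, edgeR adjusted p 0.00214). On the diet alone 13 of these 15 had negative values and 2 passed as lower.

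Among 18 NRF2 targets outside the transferases, 16 had positive values against HFD Vehicle, none passed and the median was 0.37. Against HFD, 11 of the 18 were positive with a median of 0.15. Nqo1, a quinone reductase often read as an NRF2 marker, had 0.68 ± 0.30 (SE, edgeR adjusted p 0.276) and 0.31 ± 0.18 in these comparisons. None of the regulators passed. Nr1i2 (PXR) had 0.12 with a 95% interval of -0.33 to 0.58 against HFD Vehicle, Nr1i3 (the related receptor CAR) 0.31 (-0.14 to 0.77), Nfe2l2 (NRF2) -0.34 (-1.13 to 0.45) and Keap1 0.36 (-0.05 to 0.78). Nfe2l2 was highest in HFD Vehicle 23 (381 CPM) and HFD Vehicle 50 (281 CPM), the libraries with the high Hsp90aa1 level.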

How the data were processed

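Each library is a duodenal RNA sample, and groups follow the labels. The authors deposited tables of raw counts per gene, 1 for the diet groups without injection and 1 for the injected groups. The submitters' processing notes name the aligner HISAT2, the counter HTSeq and the package DESeq2, with the build GRCm38 (mm10) and no version. Which annotation release and which filters on reads the authors used is not stated in the labels. The tables also hold the authors' log2 fold changes and p-values, which are quoted only under that name. In the file headers the gene annotation names stand 1 column to the left of their values, and columns were read by their content. No value column was left without a sample.

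Comparisons within a table used its 6 libraries. Those across tables joined raw counts of the 26121 genes in both. Each was fitted with edgeR 4.0.16 in R 4.3.3 (filterByExpr, TMM, robust quasi-likelihood F-test) and a gene passed at an adjusted p (Benjamini-Hochberg, over all genes tested) under 0.05. Standard errors are approximate, the log2 fold change over the root of F. Alternatives used DESeq2 1.42.0, limma 3.58.1 (voom), RLE factors, no count filter, all 12 libraries, removal of mitochondrial and ribosomal RNA-like genes, and removal of libraries. The scripts were tested on simulated data.

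CPM were computed from the deposited counts with TMM over all 12 libraries. Counts of genes whose groups did not overlap used CPM scaled within each comparison. Exon lengths, copies and overlaps came from GENCODE M21, whose spans are the deposited ones for 9 of the 10 genes and differ for Gstp1, and upstream sequences from RefSeq. Named genes were the 10 members, up to 3 called members of each list, and a set of regulators, markers and pathway genes. Added for each member were the 2 protein-coding genes with the highest Pearson r over 12 libraries, predicted genes left out. The members and lists were chosen with earlier results of these data known. Replicates differed by more than sampling noise (chi-square per degree of freedom at least 27.4), which does not show that they are separate animals. Each library was counted as 1 sample.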

Additional observations from a re-analysis of the deposited data

How the results depend on the processing

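Counts of genes called over the whole table moved with the processing, while the cause of each move was not tested. For HFD against Chow 10 genes passed, with 134 by DESeq2, 351 without a count filter, 2 in the fit of all 12 libraries and 4 to 63 when 1 library was left out. For HFD PCN against HFD Vehicle 10 passed, with 339 by DESeq2, 843 without a filter, 34 in the fit of all 12, 4 without mitochondrial and ribosomal RNA-like genes, 2 without HFD Vehicle 23 and 50, and 0 to 3697 with 1 library left out (0 without HFD PCN 11 or HFD Vehicle 50, 3697 without HFD Vehicle 55). For HFD Vehicle against HFD 0 passed, with 32 by DESeq2, 1 without a filter, 1 in the fit of all 12, 6 without HFD Vehicle 23 and 50, and 0 to 260 with 1 library left out. For HFD PCN against HFD 52 passed, with 401 by DESeq2, 746 without a filter, 29 in the fit of all 12 and 1 to 452 with 1 library left out (1 without HFD 4, 452 without HFD 38).

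Of the members' log2 fold changes under alternatives, 10 of 120 changed sign for HFD against Chow, 6 of 130 for HFD PCN against HFD Vehicle, 18 of 130 for HFD Vehicle against HFD and 3 of 120 for HFD PCN against HFD. None of these was called. For HFD against Chow the range with 1 library left out was -0.19 to 0.47 for Gsta2, -0.21 to 0.068 for Gstp1, -0.066 to 0.37 for Gstt1, -0.44 to 0.33 for Gstk1 and -0.19 to 0.30 for Mgst3, which was -0.0016 by limma-voom. For HFD PCN against HFD Vehicle it was -0.12 to 0.24 for Gstp1, and without HFD Vehicle 23 and 50 the values were -0.14 for Gstp1, -0.17 for Mgst1 and -0.026 for Mgst3. For HFD Vehicle against HFD it was -0.16 to 0.37 for Gsta2, -0.71 to 0.0071 for Gsta4, -0.74 to 0.016 for Gstt1, -0.32 to 0.50 for Gstk1, -0.032 to 0.65 for Mgst1 and -0.17 to 0.14 for Mgst2. In that comparison Gsta2 was -0.089 by limma-voom, and Gstk1 0.0026 by DESeq2 and 0.00014 without mitochondrial and ribosomal RNA-like genes. Without HFD Vehicle 23 and 50 it gave 0.080 for Gsta4, 0.17 for Gstt1, 0.37 for Gstk1, 0.19 for Mgst2 and 0.071 for Mgst3. For HFD PCN against HFD Mgst3 ranged from -0.17 to 0.35. Sums that include Gm3776, Gm10639 or Gstp-ps were added after seeing the data. No paired analysis was possible because no replicate number is shared between groups. Depth limits Gsta3 most, with 12 to 160 counts in a library.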
